A study of Homo sapiens with 6 samples.

Results

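The genes described here are 34 genes of sterol and fatty acid synthesis, taken by their symbols from the 24462 symbols that the count files hold. All 34 were found, each on a single line of the files, and all 34 were among the 15386 genes that passed the filter on low counts. They comprise 7 enzymes of the mevalonate pathway, 11 enzymes that turn its product into cholesterol, 5 genes of the SREBP transcription factors and their control, 2 cholesterol carriers, 4 enzymes of fatty acid synthesis and 5 desaturases and elongases. The libraries are transcript 3′ end RNA-seq from cells labelled as MDA-MB231, a human triple-negative breast cancer line from a public cell bank, grown in serum, in 3 groups of 2. The ELK3-labelled libraries come from cells labelled as an ELK3 knockdown and collected 48 hours after transfection with 1 µg of a plasmid that carries Myc-DDK-tagged ELK3. The vector-labelled libraries come from the labelled knockdown 48 hours after the same amount of the Myc-DDK plasmid without ELK3. The control libraries come from a line infected with a control retrovirus, with no plasmid transfection recorded. How the knockdown was made is not given in the sources used here, and contrasts with the controls mix it with the transfection.

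Cells build cholesterol from acetyl-CoA by way of mevalonate, farnesyl diphosphate and squalene, and they build fatty acids from the same acetyl-CoA through malonyl-CoA. SREBP-2, the product of SREBF2, is best known for switching on sterol enzymes, and SREBP-1, the product of SREBF1, for switching on fatty acid enzymes. SCAP carries both to the Golgi for cleavage when sterols in the endoplasmic reticulum run low, and the INSIG proteins hold them back when sterols are plentiful.

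Some facts of the libraries bear on every value below. ELK3 itself went against the labels, with 20.4 and 22.6 CPM in the ELK3-labelled libraries, 759 and 697 in the vector-labelled and 129 and 124 in the controls, where the unit CPM is reads scaled to a common library size, here with TMM (trimmed mean of M-values) factors. The names under which the files were deposited also exchange the 2 plasmid groups relative to the labels, so every direction below that involves them holds for the labels as given. The 12 genes listed as typical of MDA-MB-231 cells summed to 845 and 796 CPM in the ELK3-labelled libraries, 944 and 916 in the vector-labelled and 5948 and 5696 in the controls, and all 12 fell in both plasmid groups against the controls. Of 12 genes listed as typical of the kidney-derived line HEK293, 11 were tested and 10 rose in each plasmid group, with sums of 759.9 and 761 CPM in the ELK3-labelled libraries, 357 and 371 in the vector-labelled and 169 and 157 in the controls, and PAX2, a kidney development factor, had 0 counts in the controls. Between the plasmid groups too, 8 of the 11 were called higher and 1 lower in ELK3-labelled libraries, with a median log2 fold change of 0.95. The labelled treatments and a change of cell line or culture cannot be told apart in any of the 3 comparisons. Liver transcripts were present in every library: 20 of 20 markers were detected, with sums of 11574 and 12127 CPM in the ELK3-labelled libraries, 15382 and 14317 in the vector-labelled and 14210.4 and 14616 in the controls. Markers of lymphocytes summed to between 162 and 238 CPM and those of adipocytes to between 9.03 and 19.4 CPM, with the fat hormone gene LEP at 0 in the ELK3-labelled libraries and the controls and CIDEA, a lipid droplet gene, at 0 in the ELK3-labelled ones. Library totals ran from 4884483 to 9131214 counts. By these totals alone, without TMM factors, 3 counts, the limit that a count of 0 allows, stood for 0.329 to 0.614 CPM. In bulk libraries, fewer cells of a type and less RNA per cell cannot be told apart. Nothing in the labels says that the replicates are separate cultures, and p-values then measure the spread between these samples, which may be technical.

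Promoters are shown for 4 sterol enzymes that rose at least 3-fold in the vector-labelled libraries against the controls and for ELOVL5 and ELOVL6, the fatty acid elongases, which fell at least 2-fold there, because these genes moved in opposite directions. They were chosen after their values were seen. SQLE also rose at least 3-fold in that comparison (4.77-fold), but no RefSeq promoter was matched for it. Each run covers 250 bases before to 50 after the first start that RefSeq lists on GRCh38.p14, in the direction of the gene, at chr5:43313363-43313662 on the minus strand for HMGCS1, chr11:121292521-121292820 on the plus strand for SC5D, chr16:88663042-88663341 on the minus strand for MVD, chrX:152830813-152831112 on the plus strand for NSDHL, chr6:53348901-53349200 on the minus strand for ELOVL5 and chr4:110198566-110198865 on the minus strand for ELOVL6. Capitals mark CCAAT boxes, the letters CCAAT or their reverse complement ATTGG, which is the core bound by NF-Y, a factor known to act beside SREBPs.
HMGCS1: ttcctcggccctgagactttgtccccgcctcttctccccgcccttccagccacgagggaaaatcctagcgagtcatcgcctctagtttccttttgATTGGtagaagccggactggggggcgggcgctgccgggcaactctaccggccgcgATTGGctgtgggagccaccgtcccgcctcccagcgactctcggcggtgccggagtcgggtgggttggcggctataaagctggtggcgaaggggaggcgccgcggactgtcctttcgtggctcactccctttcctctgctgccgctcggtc
SC5D: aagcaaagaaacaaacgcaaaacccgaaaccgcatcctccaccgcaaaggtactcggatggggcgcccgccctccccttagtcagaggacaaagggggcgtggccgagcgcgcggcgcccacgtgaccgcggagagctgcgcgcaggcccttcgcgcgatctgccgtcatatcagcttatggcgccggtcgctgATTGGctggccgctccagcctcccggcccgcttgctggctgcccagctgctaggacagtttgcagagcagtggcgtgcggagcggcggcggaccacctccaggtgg
MVD: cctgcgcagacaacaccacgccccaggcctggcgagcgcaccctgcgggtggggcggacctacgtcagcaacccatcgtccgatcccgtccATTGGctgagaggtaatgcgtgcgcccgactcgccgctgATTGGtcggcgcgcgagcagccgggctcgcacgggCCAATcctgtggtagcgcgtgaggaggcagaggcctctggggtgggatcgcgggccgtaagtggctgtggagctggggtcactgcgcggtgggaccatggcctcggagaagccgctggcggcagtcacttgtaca
NSDHL: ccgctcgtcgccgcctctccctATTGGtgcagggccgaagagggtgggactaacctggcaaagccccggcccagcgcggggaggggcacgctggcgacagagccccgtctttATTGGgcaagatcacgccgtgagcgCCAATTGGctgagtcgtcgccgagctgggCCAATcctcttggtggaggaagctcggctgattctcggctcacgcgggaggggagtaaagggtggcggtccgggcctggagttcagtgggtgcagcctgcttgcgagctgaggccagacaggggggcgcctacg
ELOVL5: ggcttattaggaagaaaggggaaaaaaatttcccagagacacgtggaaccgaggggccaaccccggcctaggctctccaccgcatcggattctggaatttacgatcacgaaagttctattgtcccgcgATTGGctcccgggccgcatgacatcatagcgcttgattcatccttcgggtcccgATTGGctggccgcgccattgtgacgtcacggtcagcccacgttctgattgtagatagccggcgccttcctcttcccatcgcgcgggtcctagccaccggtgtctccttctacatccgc
ELOVL6: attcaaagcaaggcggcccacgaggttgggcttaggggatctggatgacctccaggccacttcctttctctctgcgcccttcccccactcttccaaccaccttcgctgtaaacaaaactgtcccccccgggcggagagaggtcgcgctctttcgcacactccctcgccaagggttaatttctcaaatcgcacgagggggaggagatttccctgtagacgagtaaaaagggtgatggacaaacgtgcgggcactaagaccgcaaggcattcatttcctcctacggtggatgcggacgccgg

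NSDHL held 5 CCAAT boxes in its window, 2 of which overlap on opposite strands, MVD held 3, HMGCS1 2, SC5D 1, ELOVL5 2 and ELOVL6 0. Boxes thus stood in promoters of genes that rose and of genes that fell in the vector-labelled libraries: among the other 8 lower genes, FDPS held 3, SCD and ACLY 2 each, and FADS1, FADS2, SREBF1, INSIG2 and NPC1 0. Among the genes called higher there, each with a matched RefSeq promoter held at least 1, except CYP51A1 and ACACA, which held 0. RefSeq promoters were matched for 30 of the 34 genes, all but ACAT2, FDFT1, SQLE and FASN. Of these 30, 19 held at least 1 CCAAT box (63.3%) against 35.7% of 27305 promoters of all genes. By role, 12 of 15 sterol enzymes, 3 of 7 regulators and carriers and 4 of 8 fatty acid enzymes held one. The sterol regulatory element searched as TCACNCCAC, on both strands, was found in the SREBF2 promoter alone, against 1.15% of all promoters. An ETS site, the kind that ELK3 binds, searched as CCGGAAG on both strands, was found in 4 of the 30 (IDI1, FDPS, CYP51A1 and INSIG2), 13.3% against 10.7% of all promoters. The GC box GGGCGG was present in 27 of the 30 and in 44.6% of all promoters. The set of all promoters was not limited to the 15386 genes tested, whereas the 30 genes were all among them, so the 2 sets differ in kind. A match describes these letters in this window and is not a shown binding site.

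**Figure D1:**
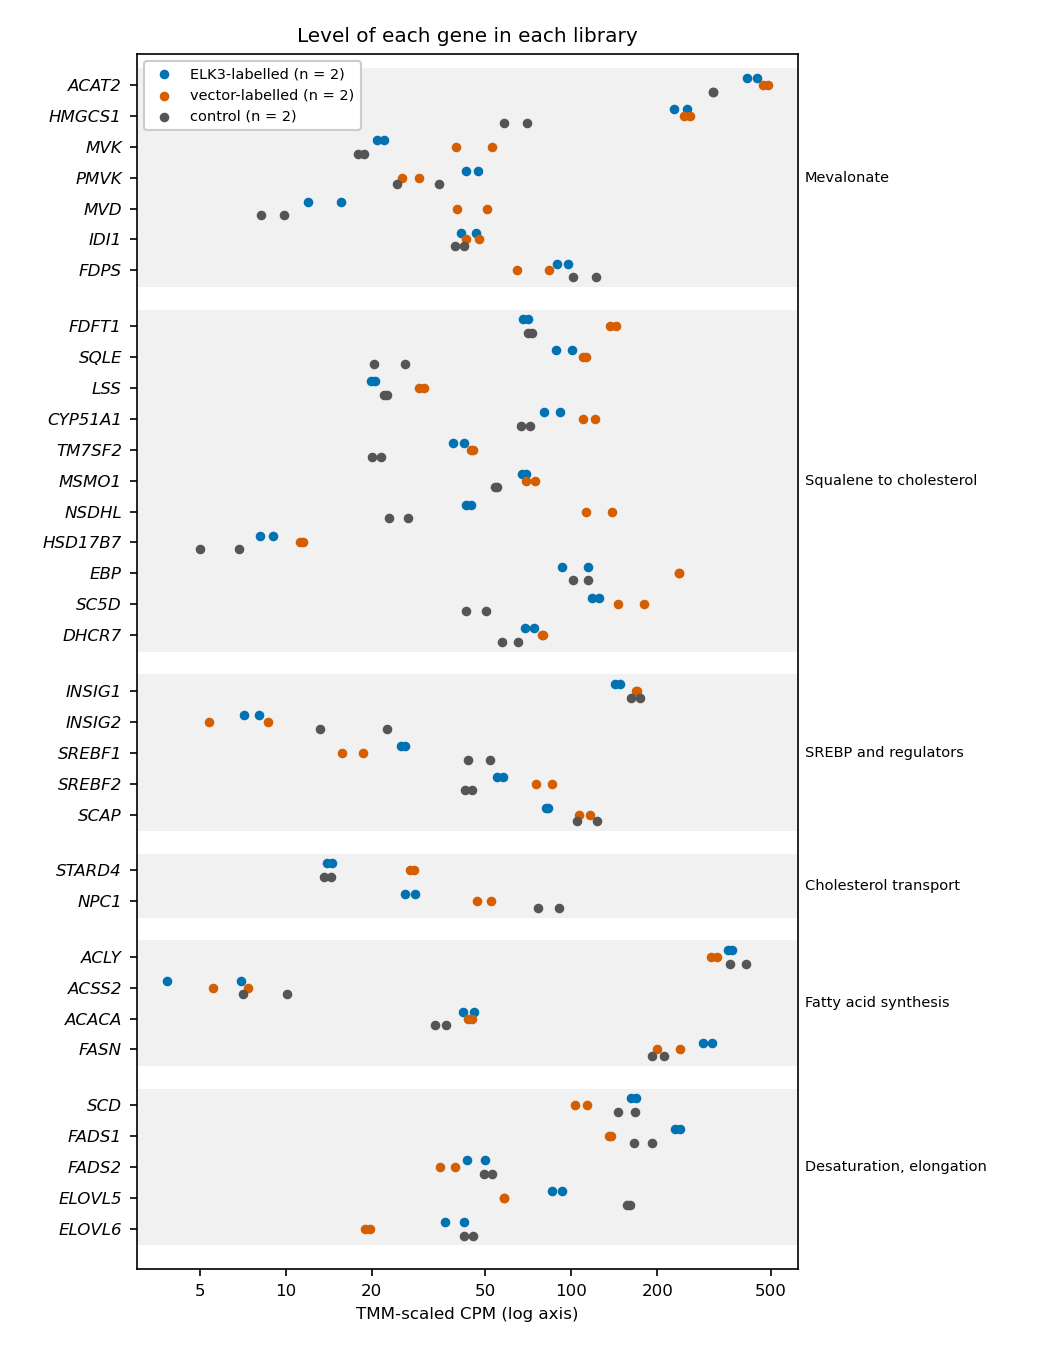
Level of each of the 34 genes in TMM-scaled CPM (log axis), with 1 point per library in the ELK3-labelled, vector-labelled and control groups (n = 2 each) and genes ordered by role. The vector-labelled points lie to the right of the controls for all 11 enzymes between squalene and cholesterol and to the left for all 5 desaturases and elongases.

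Comparing vector-labelled libraries with controls asked what the labelled knockdown, together with transfection, changed. Sterol enzymes were mostly higher and the desaturases and elongases lower. Of the 34 genes 28 were called in either direction, against 72.3% of all 15386 genes. They comprised 18 called higher, against 37.0% of all genes, and 10 called lower, against 35.3%. A call means an adjusted p under 0.05 in edgeR's quasi-likelihood test, adjusted by Benjamini-Hochberg over all genes tested. The 34 genes had a median log2 fold change of 0.36 beside 0.05 for all genes. The split by role was wide: 15 of 18 sterol enzymes were called higher and 1 lower (median 0.95), and 1 of 9 fatty acid enzymes was called higher and 6 lower (median -0.43). At least 2-fold rises were called in 8 of the 34 genes, a share close to the 23.7% of all genes. All 8 were sterol enzymes. At least 2-fold falls were called in 4 of the 34 genes and in 19.4% of all genes.

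Comparing ELK3-labelled libraries with controls asked how far the labelled re-expression differs from control cells. Here 22 of the 34 genes were called, against 62.6% of all genes. They comprised 14 higher, against 31.8%, and 8 lower, against 30.8%. The median log2 fold change was 0.16 beside 0.02 for all genes. At least 2-fold rises were called in 3 of the 34 genes (HMGCS1, SQLE and SC5D) and in 16.0% of all genes. At least 2-fold falls were called in 2 of the 34 genes and in 12.2% of all genes. Sterol enzymes had 10 higher and 1 lower of 18 (median 0.39), and fatty acid enzymes 3 higher and 2 lower of 9 (median -0.10). The count of 8 lower genes was 5 with library totals, with DESeq2, with a filter of 10 CPM and without control replicate 2. With library totals the share of higher genes among all calls of this comparison moved to 61.1%, against 50.8% with TMM, and the median of all genes moved to 0.18. The median of the 34 genes under that scaling was 0.32.

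Comparing ELK3-labelled with vector-labelled libraries asked what the ELK3 plasmid changed relative to the vector in the labelled knockdown, and ELK3 was 33.6-fold lower where it is labelled as added. In this comparison 23 of the 34 genes were called, against 59.6% of all genes. They comprised 9 higher, against 30.0%, and 14 lower, against 29.6%, and the median was -0.16 beside -0.02 for all genes. At least 2-fold falls were called in 5 of the 34 genes, all of them sterol enzymes, and in 12.4% of all genes. At least 2-fold rises were called in 1 of the 34 genes and in 10.4% of all genes. Sterol enzymes had 2 higher and 9 lower of 18 (median -0.32), and fatty acid enzymes 6 higher and 0 lower of 9 (median 0.46). No fatty acid enzyme was lower at an unadjusted p under 0.05 either, and DESeq2 and limma-voom called 0 of them lower. The 20 liver markers had a median of -0.33 in the same comparison (range -0.48 to -0.19), with 18 called lower, and of -0.28 against the controls. Sterol enzyme changes of about that size are no larger than those of the liver transcripts, whose part in these results was not tested. The 5 sterol enzymes that fell at least 2-fold lie beyond the range of the liver markers. Of 13 lymphocyte markers tested, 6 were called lower and 0 higher between the plasmid groups, with a median of -0.49, and the HEK293 markers differed there as given above. The part of either list in these results was not tested. In vector-labelled libraries against controls the liver markers had a median of 0.05, and 0 of the 20 were called by edgeR, DESeq2 or limma-voom or had an unadjusted p under 0.05.

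**Figure D2:**
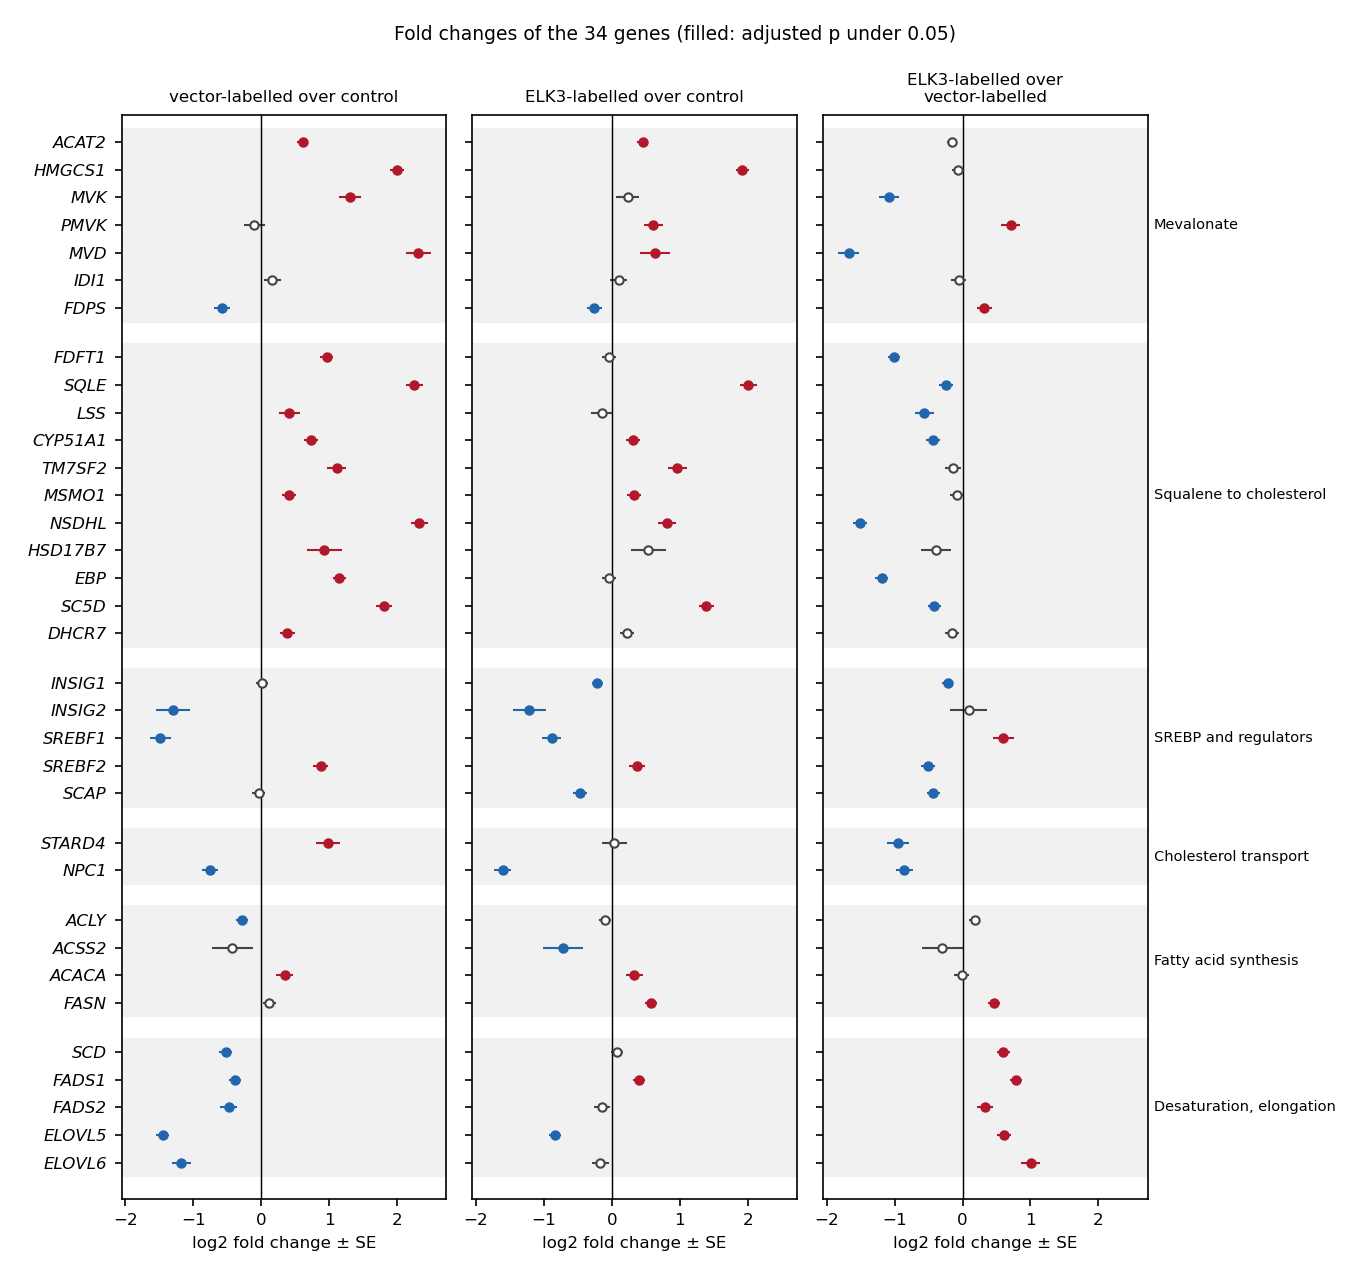
Log2 fold change of each gene with its SE in the 3 comparisons, from 1 fit to all 6 libraries, with filled red or blue points for genes called higher or lower and open points for genes not called. All 5 desaturases and elongases are blue in the left panel and red in the right panel.

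The mevalonate pathway starts with ACAT2, a thiolase that joins acetyl-CoA units, and HMGCS1, the synthase that makes HMG-CoA. HMGCS1 had 229.6 and 253 CPM in the ELK3-labelled libraries, 261 and 248 in the vector-labelled and 57.9 and 69.9 in the controls. Both plasmid groups lay above both controls and overlapped each other. The log2 fold change of HMGCS1 over the controls was 1.92 ± 0.10 (adjusted p = 7.12e-18) in ELK3-labelled and 1.99 ± 0.10 (adjusted p = 2.19e-18) in vector-labelled libraries, and between the plasmid groups it was -0.07 ± 0.09 (95% interval -0.25 to 0.10), not called. ACAT2 had 411 and 446 CPM in the ELK3-labelled libraries, 488 and 467 in the vector-labelled and 312 and 314 in the controls, above the controls in all 4 plasmid libraries. Its log2 fold changes over the controls were 0.45 ± 0.08 (adjusted p = 1.22e-05) in ELK3-labelled and 0.61 ± 0.08 (adjusted p = 5.11e-08) in vector-labelled libraries. ACAT2 was not called between the plasmid groups (-0.16 ± 0.08, adjusted p = 0.0919) except with the filter of 10 CPM in 2 libraries (0.0151). The 3′ end of ACAT2 overlaps that of TCP1, a chaperonin gene on the opposite strand, and whether reads were counted by strand is not stated. TCP1 had log2 fold changes of 0.49 ± 0.08 in ELK3-labelled and 0.51 ± 0.08 in vector-labelled libraries over controls, and the reads of this pair cannot be told apart.

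The kinase MVK and the decarboxylase MVD, which act later on mevalonate, were high in the vector-labelled libraries alone or nearly so. MVD had 11.9 and 15.6 CPM in the ELK3-labelled libraries, 39.7 and 50.8 in the vector-labelled and 9.83 and 8.17 in the controls. Its vector-labelled level was 4.97-fold that of the controls, a log2 fold change of 2.31 ± 0.19 (adjusted p = 8.26e-13). The log2 fold change of ELK3-labelled over vector-labelled libraries was -1.68 ± 0.16 (adjusted p = 8.66e-11). The ELK3-labelled libraries were still above the controls (0.64 ± 0.22, adjusted p = 0.0111). MVD lost the ELK3-labelled over control call with DESeq2 (0.0501), without control replicate 2 (0.0806) and without ELK3-labelled replicate 2 (0.204), where the values in parentheses are adjusted p, here and below. MVK had 20.8 and 22.1 CPM in the ELK3-labelled libraries, 39.4 and 52.6 in the vector-labelled and 18.8 and 17.8 in the controls, and both vector-labelled libraries stood apart from the other 4. The log2 fold change of MVK was 1.31 ± 0.16 (adjusted p = 7.3e-09) for vector-labelled libraries over controls and -1.08 ± 0.14 (adjusted p = 9.28e-08) for ELK3-labelled over vector-labelled, and ELK3-labelled libraries and controls were not called apart (0.23 ± 0.17, 95% interval -0.11 to 0.58) except with library totals (0.0479).

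Not every step moved this way. PMVK, the kinase between MVK and MVD, had 42.8 and 47.1 CPM in the ELK3-labelled libraries, 29.2 and 25.6 in the vector-labelled and 34.5 and 24.5 in the controls, and rose in the ELK3-labelled libraries by 0.61 ± 0.14 (adjusted p = 0.000377) over the controls and 0.71 ± 0.14 (adjusted p = 4.63e-05) over the vector-labelled ones. IDI1, the isomerase of isopentenyl diphosphate, passed the threshold in none of the 3 comparisons, with log2 fold changes of 0.10 ± 0.12, 0.16 ± 0.13 and -0.06 ± 0.12 for ELK3-labelled over control, vector-labelled over control and ELK3-labelled over vector-labelled. With library totals, IDI1 passed the threshold in vector-labelled libraries over controls (0.29, adjusted p = 0.0386). FDPS, the farnesyl diphosphate synthase, went the other way, with 88.7 and 97.3 CPM in the ELK3-labelled libraries, 83.7 and 64.6 in the vector-labelled and 102 and 122 in the controls. It was the 1 sterol enzyme called lower in both plasmid groups, with log2 fold changes of -0.58 ± 0.11 (adjusted p = 2.78e-05) in vector-labelled and -0.26 ± 0.11 (adjusted p = 0.0363) in ELK3-labelled libraries over controls. Between the plasmid groups its log2 fold change was 0.32 ± 0.11 (adjusted p = 0.0128). The ELK3-labelled over control value lies within the range of the liver markers there (-0.40 to -0.16), whose part in it was not tested. FDPS lost the ELK3-labelled over control call with library totals (0.437), with DESeq2 (0.114), with the filter of 10 CPM in 2 libraries (0.0753), without control replicate 2 (0.366) and without ELK3-labelled replicate 1 (0.208). FDPS lost the ELK3-labelled over vector-labelled call with DESeq2 (0.0614), with the filter of 10 CPM in 2 libraries (0.0525), without vector-labelled replicate 2 (0.269) and without ELK3-labelled replicate 2 (0.123). FDPS has 8 pseudogene copies in GENCODE 29, of which FDPSP2 is listed in the files and fell as well (-2.27 ± 0.28 in ELK3-labelled and -1.32 ± 0.27 in vector-labelled libraries over controls). The antisense gene RUSC1-AS1 at its 3′ end had values of -0.27 ± 0.11 and -0.60 ± 0.11. The FDPS value is uncertain for that reason.

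All 11 enzymes from squalene synthesis to cholesterol were called higher in vector-labelled libraries than in controls, against 37.0% of all genes, with a median log2 fold change of 0.97. In ELK3-labelled libraries 6 of the 11 were called higher than in controls, against 31.8% of all genes, and 7 of the 11 were called lower than in vector-labelled libraries, against 29.6%. In these comparisons 0 were called the other way by edgeR, DESeq2 or limma-voom and 0 the other way at an unadjusted p under 0.05. Together these 11 genes summed to 723 and 731 CPM in the ELK3-labelled libraries, 1126 and 1135 in the vector-labelled and 499.6 and 515 in the controls, so the vector-labelled sum was 2.23 times the control sum and the ELK3-labelled sum 0.643 times the vector-labelled one.

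SQLE, the epoxidase that commits squalene to sterols, had 100.2 and 88.5 CPM in the ELK3-labelled libraries, 110.2 and 113 in the vector-labelled and 26.1 and 20.4 in the controls. Both plasmid groups were several times above the controls, with log2 fold changes of 2.01 ± 0.12 (adjusted p = 7.82e-16) and 2.25 ± 0.12 (adjusted p = 2.41e-17) in ELK3-labelled and vector-labelled libraries. The difference between the plasmid groups was small (-0.24 ± 0.10, adjusted p = 0.0316) and nearer 0 than the median of the liver markers, whose part in it was not tested. SQLE lost the ELK3-labelled over vector-labelled call with library totals (0.0629), with DESeq2 (0.137), with no filter (0.12), without vector-labelled replicate 1 (0.0908), without vector-labelled replicate 2 (0.134) and without ELK3-labelled replicate 2 (0.346). SC5D, a sterol desaturase of the late pathway, had 118 and 125 CPM in the ELK3-labelled libraries, 179 and 145 in the vector-labelled and 42.9 and 50.1 in the controls, and showed the same order of groups. It was 2.62-fold higher in ELK3-labelled and 3.5-fold higher in vector-labelled libraries than in controls (log2 fold changes 1.39 ± 0.11 and 1.81 ± 0.11, adjusted p = 7.77e-13 and 4.83e-16). Between the plasmid groups SC5D stood at -0.42 ± 0.10 (adjusted p = 0.000362). SC5D lost the ELK3-labelled over vector-labelled call without vector-labelled replicate 1 (0.073). TM7SF2, a sterol reductase, had 38.6 and 42.2 CPM in the ELK3-labelled libraries, 44.4 and 45.4 in the vector-labelled and 20.1 and 21.5 in the controls, with log2 fold changes of 0.96 ± 0.14 and 1.11 ± 0.14 in ELK3-labelled and vector-labelled libraries over controls (adjusted p = 2.79e-07 and 1.59e-08), and was not called between the plasmid groups.

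NSDHL, EBP and FDFT1 were well above both other groups in the vector-labelled libraries. NSDHL, which removes methyl groups from sterols, had 42.8 and 44.7 CPM in the ELK3-labelled libraries, 112 and 138 in the vector-labelled and 23.0 and 26.9 in the controls. Its vector-labelled level was 5.01-fold the control level (log2 fold change 2.32 ± 0.13, adjusted p = 1.54e-17), and it was 2.85-fold lower in ELK3-labelled than in vector-labelled libraries (-1.51 ± 0.11, adjusted p = 9.14e-14). Over the controls, the ELK3-labelled libraries were higher by 0.81 ± 0.14 (adjusted p = 3.76e-06). EBP, the sterol isomerase, had 92.7 and 115 CPM in the ELK3-labelled libraries, 239 and 238 in the vector-labelled and 101 and 114 in the controls, so ELK3-labelled libraries and controls overlapped and the vector-labelled ones lay far above both. FDFT1, the squalene synthase, had 67.7 and 70.7 CPM in the ELK3-labelled libraries, 136 and 144 in the vector-labelled and 72.8 and 70.3 in the controls, the same arrangement. The log2 fold changes of ELK3-labelled over vector-labelled libraries were -1.19 ± 0.09 (adjusted p = 1.03e-12) for EBP and -1.01 ± 0.09 (adjusted p = 2.81e-11) for FDFT1, and against the controls they were -0.04 ± 0.10 (95% interval -0.25 to 0.16) and -0.05 ± 0.10 (-0.25 to 0.16), neither called.

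Like FDFT1 (1.95-fold), the other 5 enzymes of this stretch rose less than 2-fold in the vector-labelled libraries over controls. LSS, the lanosterol synthase, and CYP51A1, the lanosterol demethylase, rose by 0.41 ± 0.15 (adjusted p = 0.0168) and 0.74 ± 0.10 (adjusted p = 9.72e-08) in vector-labelled libraries over controls. In ELK3-labelled over vector-labelled libraries LSS stood at -0.56 ± 0.14 (adjusted p = 0.0012) and CYP51A1 at -0.44 ± 0.10 (adjusted p = 0.000217). The values of CYP51A1 and SC5D in that comparison lie within the range of the liver markers, and that of LSS lies beyond it. Over the controls, CYP51A1 was called higher in ELK3-labelled libraries too (0.30 ± 0.10, adjusted p = 0.0109). LSS lost the vector-labelled over control call with DESeq2 (0.0862), with no filter (0.0509), without control replicate 1 (0.0593), without control replicate 2 (0.0821) and without vector-labelled replicate 2 (0.078). CYP51A1 lost the ELK3-labelled over control call with DESeq2 (0.0554), without control replicate 1 (0.0938) and without ELK3-labelled replicate 1 (0.14). MSMO1, the sterol methyl oxidase, was 0.32 ± 0.11 (adjusted p = 0.00814) and 0.41 ± 0.11 (adjusted p = 0.00101) above the controls in ELK3-labelled and vector-labelled libraries. MSMO1 lost the ELK3-labelled over control call with DESeq2 (0.0521) and without control replicate 2 (0.0501). DHCR7, the reductase of the final steps, rose in vector-labelled libraries by 0.38 ± 0.11 (adjusted p = 0.00176). DHCR7 lost the vector-labelled over control call without control replicate 2 (0.0641). In ELK3-labelled libraries over controls DHCR7 stood at 0.23 ± 0.11, not called (adjusted p = 0.0616), but passed the threshold with library totals (0.0024), with the filter of 10 CPM in 2 libraries (0.0308) and without control replicate 1 (0.0391). Between the plasmid groups it stood at -0.16 ± 0.10, and passed with the filter of 10 CPM in 2 libraries (0.0491) alone. HSD17B7, a sterol ketone reductase, had 8.57 ± 0.656 CPM in ELK3-labelled, 11.3 ± 0.178 in vector-labelled and 5.95 ± 1.32 in control libraries (SD, n = 2 each), and was called in vector-labelled libraries over controls alone (0.93 ± 0.26, adjusted p = 0.00171). In ELK3-labelled libraries over controls HSD17B7 passed the threshold with library totals (0.0195), with the filter of 10 CPM in 2 libraries (0.049) and without control replicate 2 (0.0479). Its copy HSD17B7P2 is listed separately and rose in vector-labelled libraries over controls by 0.99 ± 0.33. HSD17B7P2 was called higher in ELK3-labelled libraries over controls too (0.86 ± 0.33, adjusted p = 0.0227). How reads shared by the pair were counted is not stated.

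**Figure D3:**
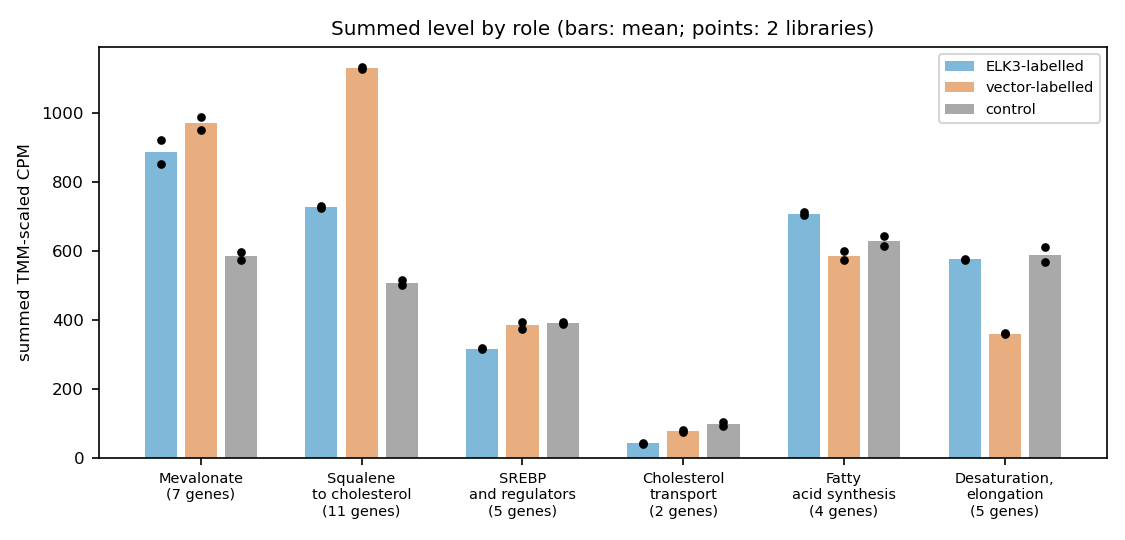
Summed TMM-scaled CPM of the genes of each role, with bars for the mean and points for the 2 libraries of the ELK3-labelled, vector-labelled and control groups. Sterol sums peak in the vector-labelled libraries, where the sum of the 5 desaturases and elongases is lowest.

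The transcription factor genes of the pathway moved in opposite directions. SREBF2, the gene of the factor best known for sterol enzymes, had 57.7 and 55 CPM in the ELK3-labelled libraries, 75.1 and 85.2 in the vector-labelled and 42.5 and 44.7 in the controls. Its log2 fold changes were 0.87 ± 0.11 (adjusted p = 2.32e-08) in vector-labelled and 0.37 ± 0.11 (adjusted p = 0.00564) in ELK3-labelled libraries over controls, and -0.51 ± 0.10 (adjusted p = 8.09e-05) in ELK3-labelled over vector-labelled ones, the order of groups also seen for MVD, NSDHL and SC5D. SREBF1, the gene of the factor best known for fatty acid enzymes, had 25.3 and 26.3 CPM in the ELK3-labelled libraries, 15.7 and 18.6 in the vector-labelled and 51.9 and 43.4 in the controls, the reverse order. Its log2 fold changes were -1.49 ± 0.15 (adjusted p = 1.52e-10) in vector-labelled and -0.88 ± 0.14 (adjusted p = 1.21e-06) in ELK3-labelled libraries over controls, and 0.60 ± 0.16 (adjusted p = 0.00123) in ELK3-labelled over vector-labelled ones. The 3′ end of SREBF1 overlaps the opposite-strand gene RAI1, which also fell against the controls (-1.08 ± 0.15 and -0.82 ± 0.14 in vector-labelled and ELK3-labelled libraries) and was not called between the plasmid groups (0.27 ± 0.16).

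The genes that hold or carry the SREBPs did not follow one direction. INSIG2 had 7.16 and 8.08 CPM in the ELK3-labelled libraries, 8.67 and 5.4 in the vector-labelled and 13.2 and 22.6 in the controls, lower in both plasmid groups than in both controls. Its log2 fold changes over the controls were -1.30 ± 0.25 (adjusted p = 2.91e-05) in vector-labelled and -1.21 ± 0.24 (adjusted p = 4.87e-05) in ELK3-labelled libraries. INSIG1, itself a well-known SREBP target, had 142 and 147 CPM in the ELK3-labelled libraries, 168 and 169 in the vector-labelled and 162 and 174 in the controls, and its change in vector-labelled libraries over controls was 0.01 ± 0.09 (95% interval -0.17 to 0.19), not called. In ELK3-labelled libraries it was -0.21 ± 0.09 (adjusted p = 0.0325) over controls and -0.22 ± 0.09 (adjusted p = 0.0258) over vector-labelled ones, nearer 0 than the medians of the liver markers, whose part in them was not tested. INSIG1 lost the ELK3-labelled over control call with library totals (0.613), with DESeq2 (0.0742), with no filter (0.0615), with the filter of 10 CPM in 2 libraries (0.063), without control replicate 2 (0.179), without ELK3-labelled replicate 1 (0.157) and without ELK3-labelled replicate 2 (0.0697). INSIG1 lost the ELK3-labelled over vector-labelled call with DESeq2 (0.0698), with no filter (0.155), without vector-labelled replicate 1 (0.0991), without vector-labelled replicate 2 (0.119), without ELK3-labelled replicate 1 (0.158) and without ELK3-labelled replicate 2 (0.0731). SCAP, the escort of the SREBPs, had 82.7 and 81.5 CPM in the ELK3-labelled libraries, 106 and 116 in the vector-labelled and 123 and 104 in the controls, lower in the ELK3-labelled libraries than in all 4 others. The log2 fold changes of SCAP in ELK3-labelled libraries were -0.47 ± 0.10 (adjusted p = 0.000101) over controls and -0.43 ± 0.10 (adjusted p = 0.000264) over vector-labelled libraries. The SCAP value between the plasmid groups lies within the range of the liver markers, whose part in it was not tested.

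Both cholesterol carriers were lower in ELK3-labelled than in vector-labelled libraries, and they parted against the controls. STARD4, which moves cholesterol between membranes, had 14.0 and 14.6 CPM in the ELK3-labelled libraries, 27.2 and 28.2 in the vector-labelled and 13.6 and 14.4 in the controls, so ELK3-labelled libraries and controls overlapped below the vector-labelled ones. The log2 fold changes of STARD4 were 0.98 ± 0.17 (adjusted p = 6.36e-06) for vector-labelled over control and -0.95 ± 0.16 (adjusted p = 4.43e-06) for ELK3-labelled over vector-labelled libraries. NPC1, which exports cholesterol from lysosomes, had 26.1 and 28.4 CPM in the ELK3-labelled libraries, 52.3 and 46.6 in the vector-labelled and 90.8 and 76.3 in the controls. It fell in each comparison, with log2 fold changes of -0.75 ± 0.11 (adjusted p = 5.31e-07) and -1.61 ± 0.12 (adjusted p = 9.08e-14) in vector-labelled and ELK3-labelled libraries over controls and -0.86 ± 0.12 (adjusted p = 3.22e-07) between the plasmid groups, a pattern that 1 of the 34 genes and 2.91% of all genes had. The 3′ end of NPC1 overlaps the opposite-strand gene RMC1, listed in the files under its older symbol C18orf8, which also fell in each comparison (-0.50 ± 0.14, -0.87 ± 0.14 and -0.37 ± 0.14 in the same order).

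Calls among the 4 enzymes of fatty acid synthesis differed by comparison. In vector-labelled libraries over controls 1 was called higher and 1 lower, against 37.0% and 35.3% of all genes. In ELK3-labelled libraries over controls 2 were called higher and 1 lower, against 31.8% and 30.8%. Between the plasmid groups 1 was called higher and 0 lower, against 30.0% and 29.6%. ACLY, which makes cytosolic acetyl-CoA from citrate, had 353 and 364 CPM in the ELK3-labelled libraries, 323 and 309 in the vector-labelled and 360.3 and 409 in the controls. Its log2 fold change in vector-labelled libraries over controls was -0.28 ± 0.08 (adjusted p = 0.00333). ACLY lost the vector-labelled over control call with library totals (0.102) and with the filter of 10 CPM in 2 libraries (0.0503). Between the plasmid groups ACLY stood at 0.18 ± 0.08 and was not called (adjusted p = 0.0606), but passed the threshold with library totals (0.0264), with limma-voom (0.0454), with no filter (0.0163), with the 4 libraries compared alone (0.0276), without control replicate 1 (0.0259) and without control replicate 2 (0.0245). ACSS2, which makes acetyl-CoA from acetate, was near the lowest counts of the group at 5.41 ± 2.24 CPM in ELK3-labelled, 6.49 ± 1.29 in vector-labelled and 8.61 ± 2.12 in control libraries (SD, n = 2 each). It was called lower in ELK3-labelled libraries over controls (-0.73 ± 0.30, adjusted p = 0.0327). ACSS2 lost the ELK3-labelled over control call with library totals (0.101), with DESeq2 (0.157), without control replicate 2 (0.282) and without ELK3-labelled replicate 2 (0.467).

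ACACA, the acetyl-CoA carboxylase, was 0.33 ± 0.12 (adjusted p = 0.0215) and 0.34 ± 0.13 (adjusted p = 0.0165) above the controls in ELK3-labelled and vector-labelled libraries. ACACA lost the ELK3-labelled over control call with DESeq2 (0.114), without control replicate 2 (0.161) and without ELK3-labelled replicate 2 (0.176). ACACA lost the vector-labelled over control call with DESeq2 (0.0829), with no filter (0.0554), without control replicate 2 (0.151) and without vector-labelled replicate 1 (0.0838). FASN, the fatty acid synthase, had 312 and 289 CPM in the ELK3-labelled libraries, 199 and 239.7 in the vector-labelled and 211 and 192 in the controls, so the ELK3-labelled libraries were above all 4 others. Its log2 fold change was 0.58 ± 0.09 (adjusted p = 1.6e-06) over controls and 0.46 ± 0.09 (adjusted p = 5.03e-05) over vector-labelled libraries, and vector-labelled libraries and controls were not called apart (0.12 ± 0.09, adjusted p = 0.255) except with library totals (0.0171) and with the filter of 10 CPM in 2 libraries (0.038).

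The 5 desaturases and elongases moved together and against the sterol enzymes. All 5 were called lower in vector-labelled libraries than in controls, against 35.3% of all genes, and all 5 were called higher in ELK3-labelled than in vector-labelled libraries, against 30.0%. Both comparisons use the vector-labelled libraries, so they are not independent of each other. Summed, the 5 genes stood at 576 and 573 CPM in the ELK3-labelled libraries, 362 and 357 in the vector-labelled and 567 and 611 in the controls, and the vector-labelled sum was 0.61 times the control sum. Over the controls, ELK3-labelled libraries had 1 of the 5 higher and 1 lower, against 31.8% and 30.8% of all genes.

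ELOVL6, the elongase of saturated and monounsaturated fatty acids, had 42.0 and 36.3 CPM in the ELK3-labelled libraries, 19.7 and 19.0 in the vector-labelled and 45.4 and 42.1 in the controls. It was 2.26-fold lower in vector-labelled libraries than in controls (log2 fold change -1.17 ± 0.14, adjusted p = 8.44e-09), 1.00 ± 0.14 (adjusted p = 1.82e-07) higher in ELK3-labelled than in vector-labelled libraries, and -0.17 ± 0.13 (95% interval -0.43 to 0.09), not called, in ELK3-labelled libraries over controls. ELOVL5, the elongase of polyunsaturated fatty acids, had 92.5 and 85.8 CPM in the ELK3-labelled libraries, 58.3 and 58.2 in the vector-labelled and 157 and 161 in the controls, with no overlap between any 2 groups. The log2 fold changes of ELOVL5 were -1.45 ± 0.10 (adjusted p = 4.21e-15) in vector-labelled and -0.84 ± 0.09 (adjusted p = 9.05e-10) in ELK3-labelled libraries over controls and 0.61 ± 0.10 (adjusted p = 2.25e-06) between the plasmid groups, so ELK3-labelled libraries stood between the other groups.

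SCD, which makes oleate from stearate, had 161 and 168 CPM in the ELK3-labelled libraries, 114 and 103 in the vector-labelled and 146 and 167 in the controls, lower in the vector-labelled libraries than in all 4 others. The log2 fold change of SCD was -0.52 ± 0.09 (adjusted p = 9.43e-06) for vector-labelled over control and 0.60 ± 0.09 (adjusted p = 9.87e-07) for ELK3-labelled over vector-labelled libraries. For ELK3-labelled over control it was 0.08 ± 0.09, not called except with library totals (0.0198). FADS1 and FADS2 are the front-end desaturases of polyunsaturated fatty acids and lie next to each other, and in GENCODE 29 the opposite-strand FADS2 overlaps the 3′ end of FADS1. Whether reads were counted by strand is not stated, so reads from this overlap cannot be told apart. FADS1 had 231 and 240.3 CPM in the ELK3-labelled libraries, 135 and 138 in the vector-labelled and 166 and 192 in the controls. FADS1 had log2 fold changes of -0.39 ± 0.09 (adjusted p = 0.000288) in vector-labelled and 0.40 ± 0.09 (adjusted p = 0.000187) in ELK3-labelled libraries over controls. FADS1 was the 1 gene of the 34 called in opposite directions there, lower in vector-labelled and higher in ELK3-labelled libraries, as were 2.6% of all genes. Between the plasmid groups its log2 fold change was 0.79 ± 0.09 (adjusted p = 2.47e-09). FADS2 had 49.8 and 43.2 CPM in the ELK3-labelled libraries, 34.7 and 39.0 in the vector-labelled and 52.7 and 49.5 in the controls, with log2 fold changes of -0.48 ± 0.13 (adjusted p = 0.00104) for vector-labelled over control and 0.33 ± 0.12 (adjusted p = 0.0175) for ELK3-labelled over vector-labelled libraries. FADS2 lost the ELK3-labelled over vector-labelled call with DESeq2 (0.0991), with the filter of 10 CPM in 2 libraries (0.0525), without vector-labelled replicate 1 (0.183) and without ELK3-labelled replicate 1 (0.161).

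**Figure D4:**
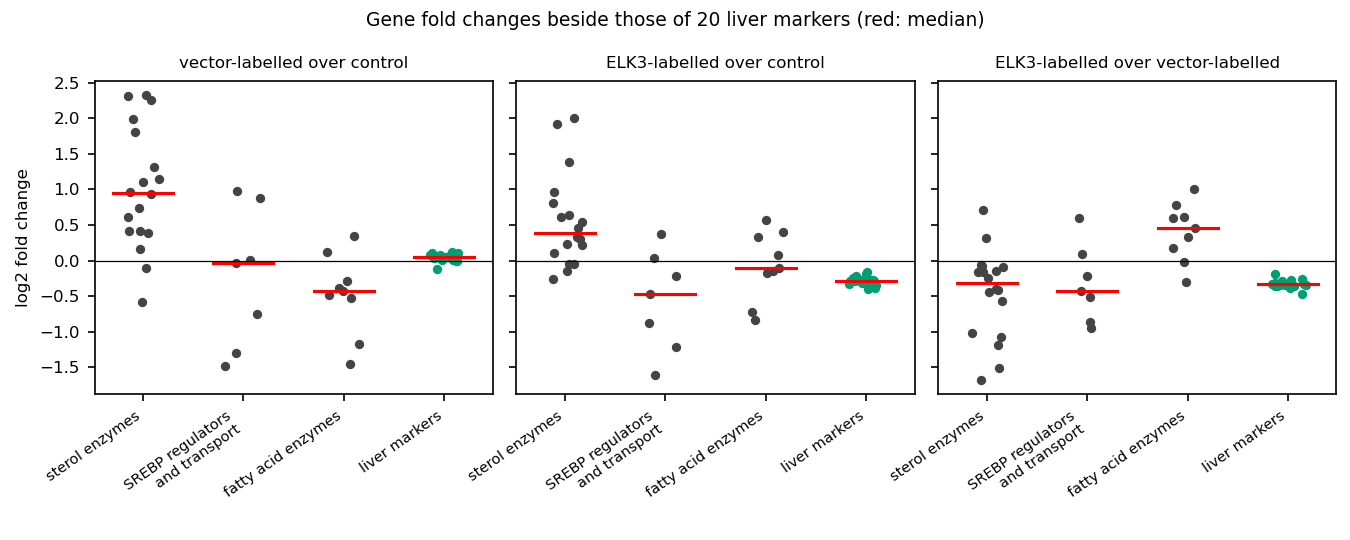
Log2 fold changes of the 18 sterol enzymes, the 7 regulators and carriers, the 9 fatty acid enzymes and 20 liver markers in the 3 comparisons, with 1 point per gene and the median in red. The liver markers are near 0 in the left panel and have medians of -0.28 and -0.33 in the other panels.

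Across the 3 comparisons the 34 genes fell into 14 combinations of calls. The most frequent was higher than controls in both plasmid groups and lower in ELK3-labelled than in vector-labelled libraries, with MVD, SQLE, CYP51A1, NSDHL, SC5D and SREBF2 (17.6% of the 34 genes and 8.89% of all genes). ACAT2, HMGCS1, TM7SF2, MSMO1 and ACACA were higher than controls in both plasmid groups and not called between them (14.7% and 10.1%). MVK, FDFT1, LSS, EBP and STARD4 were high in the vector-labelled libraries and not called apart in the other groups (14.7% and 10.4%). SCD, FADS2 and ELOVL6 were low in the vector-labelled libraries and not called apart in the other groups (8.82% and 7.71%), although SCD and MVK each passed the threshold between those groups with library totals. None of the 34 was called higher in vector-labelled and lower in ELK3-labelled libraries than in controls, the order of ELK3 itself, which 1.78% of all genes had.

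Other genes of lipid metabolism moved in both directions in every list. The shares of all genes to read these counts against are 37.0% higher and 35.3% lower in vector-labelled libraries over controls, 31.8% and 30.8% in ELK3-labelled libraries over controls, and 30.0% and 29.6% in ELK3-labelled over vector-labelled libraries. Of 10 genes of SREBP cleavage and sterol-dependent degradation, 4 were called higher (40.0%) and 2 lower (20%) in ELK3-labelled than in vector-labelled libraries, and 3 higher (30.0%) and 5 lower (50%) in vector-labelled libraries than in controls. The SREBP protease gene MBTPS2 rose by 0.97 ± 0.12 (adjusted p = 2.6e-08) in the first of these. ERLIN1, a membrane protein that restrains SREBPs, fell, with log2 fold changes of -1.23 ± 0.10 (adjusted p = 1.88e-13) in vector-labelled and -2.04 ± 0.10 (adjusted p = 9.22e-19) in ELK3-labelled libraries over controls. Of 12 genes of the isoprenoid side branches 4 rose (33.3%) and 2 fell (16.7%) in vector-labelled libraries over controls, and 4 rose (33.3%) and 6 fell (50%) in ELK3-labelled over vector-labelled libraries. The subunits of the enzyme that makes the ubiquinone tail parted, with PDSS2 at -1.63 ± 0.12 (adjusted p = 1.69e-13) and PDSS1 at 1.86 ± 0.20 (adjusted p = 6.84e-10) between the plasmid groups, and DHDDS, which makes dolichol chains, fell there (-1.11 ± 0.10, adjusted p = 4.66e-11).

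Of 15 genes of the oxysterol receptors LXR and of sterol transport and storage, 5 rose (33.3%, against 37.0% of all genes) and 7 fell (46.7%, against 35.3%) in vector-labelled libraries over controls. In ELK3-labelled libraries over controls 4 rose (26.7%, against 31.8%) and 6 fell (40.0%, against 30.8%). NCEH1, which hydrolyses cholesterol esters, was 24.2-fold lower in vector-labelled and 13.4-fold lower in ELK3-labelled libraries than in controls (adjusted p = 1.19e-20 and 4.79e-20). The esterifying enzyme SOAT1 fell, at -1.76 ± 0.13 (adjusted p = 2.05e-14) and -1.03 ± 0.11 (adjusted p = 1.09e-09) in vector-labelled and ELK3-labelled libraries, and NPC2, the lysosomal partner of NPC1, at -1.82 ± 0.10 (adjusted p = 1.93e-17) and -1.54 ± 0.09 (adjusted p = 7.75e-16). Among 20 tested of 21 further genes of fatty acid synthesis 9 rose (45.0%) and 7 fell (35%) in vector-labelled libraries over controls, with the very-long-chain elongases ELOVL4 and ELOVL2 at 4.57 ± 0.19 (adjusted p = 9.42e-21) and 3.04 ± 0.18 (adjusted p = 2.91e-16), opposite to ELOVL5 and ELOVL6. In ELK3-labelled over vector-labelled libraries 3 of them rose (15.0%, against 30.0% of all genes) and 9 fell (45.0%, against 29.6%), with ELOVL4 at -1.24 ± 0.12 (adjusted p = 4.82e-11) and ELOVL2 at -1.03 ± 0.13 (adjusted p = 5.16e-08). Of 18 genes of fatty acid oxidation 8 rose (44.4%) and 4 fell (22.2%) in vector-labelled libraries over controls. In ELK3-labelled over vector-labelled libraries 5 rose (27.8%) and 10 fell (55.6%). The 3 genes of smallest p in this list were called higher in the first of these comparisons and lower in the second. The hydratase ECHS1 stood at 1.43 ± 0.09 (adjusted p = 7.49e-16) and -0.98 ± 0.09 (adjusted p = 8.03e-12). ETFB stood at 1.96 ± 0.10 (adjusted p = 6.96e-18) and -0.70 ± 0.09 (adjusted p = 4.36e-08), and ECI1 at 1.59 ± 0.12 (adjusted p = 5.63e-14) and -0.47 ± 0.10 (adjusted p = 0.000177).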

How the data were processed

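Total RNA of 6 libraries was made into libraries with a Lexogen QuantSeq kit, which reads transcript 3′ ends, per the labels' protocols. The deposited files hold raw read counts per gene symbol, and Bowtie2, edgeR and hg19 are named without versions or roles, per the submitters' processing notes. The counting tool, its annotation and its strand setting are not given in the sources used here. Symbols on several lines (286 of 24462) were summed, which touched none of the 34 genes.

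Counts were fitted with edgeR 4.0.16 in R 4.3.3: filterByExpr, TMM scaling, 1 mean per group over all 6 libraries (3 residual degrees of freedom) and robust quasi-likelihood tests, two-sided, with Benjamini-Hochberg adjustment over 15386 genes and a threshold of 0.05. The SE of a log2 fold change is its size divided by the square root of F. A gene was called higher or lower where its adjusted p was under 0.05. Replicates differed by more than sampling noise in each group (chi-square per degree of freedom 2.21 to 3.02), and the common biological coefficient of variation was 0.0645. The limit that a count of 0 allows covers counting error only.

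The 34 genes and all gene lists were chosen with earlier results of these data known, so no p was computed over a list. All 34 genes were open to naming, with up to 3 genes of smallest p from each other list, and genes overlapping a member's 3′ end within GENCODE 29 on GRCh38, a build other than the hg19 of the processing notes. Alternatives were other scalings (edgeR's relative log expression factors, library totals), DESeq2 1.42.0 and limma-voom (limma 3.58.1). Further ones were other filters, a replicate block, the 4 compared libraries alone, and each library left out.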

Additional observations from a re-analysis of the deposited data

How the results depend on the processing

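Of 102 log2 fold changes (34 genes in 3 comparisons), 63 kept their direction and their side of the threshold in each alternative fit run, and 39 did not in at least 1. No change called in the reported fit turned its direction. The 16 that did turn were not called, and the cause was not tested. In vector-labelled over control libraries, PMVK stood at 0.034 and SCAP at 0.096 with library totals. In ELK3-labelled over control libraries, ACLY stood at 0.060, EBP at 0.12, FADS2 at 0.015, FDFT1 at 0.11 and LSS at 0.0099 with library totals. In ELK3-labelled over vector-labelled libraries, ACACA stood at 0.010 with library totals. In vector-labelled over control libraries, INSIG1 stood at -0.044 with no filter. In ELK3-labelled over vector-labelled libraries, ACACA stood at 0.045 and IDI1 at 0.00017 with no filter. In vector-labelled over control libraries, PMVK stood at 0.0014 and SCAP at 0.063 with a filter of 10 CPM. With each library left out in turn, vector-labelled over control values ran from -0.057 to 0.036 for INSIG1, from -0.34 to 0.15 for PMVK, from -0.17 to 0.070 for SCAP and from -0.034 to 0.25 for FASN. With each library left out in turn, ELK3-labelled over control values ran from -0.018 to 0.17 for SCD, from -0.012 to 0.067 for STARD4 and from -0.22 to 0.093 for EBP. With each library left out in turn, ELK3-labelled over vector-labelled values ran from -0.079 to 0.052 for ACACA, from -0.13 to 0.036 for IDI1, from -0.16 to 0.51 for INSIG2, from -0.14 to 0.0020 for HMGCS1 and from -0.73 to 0.14 for ACSS2.

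The count of the 34 genes called lower in ELK3-labelled libraries over controls (8) was 5 under library totals, DESeq2 or the filter of 10 CPM, and ran from 5 to 8 with each library left out in turn, fits in which the lone library of a group is assumed to vary like the other groups. Library totals also moved the median log2 fold change of all genes to 0.18 against 0.05 (vector-labelled over control) and to 0.18 against 0.02 (ELK3-labelled over control). The deviations of same-numbered libraries had correlations of 0.03 (ELK3-labelled and control), -0.06 (vector-labelled and control) and -0.00066 (ELK3-labelled and vector-labelled). These correlations do not show whether the libraries were prepared in pairs. In fits with a replicate block, 9531, 11057 and 9051 genes were called in ELK3-labelled over control, vector-labelled over control and ELK3-labelled over vector-labelled libraries, against 9633, 11117 and 9174 without it, and 22, 28 and 23 of the 34 genes, the same numbers as without it.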
